A study of Mus musculus with 2 samples.

Results

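The genes described here are 10 genes of the simple epithelium and of the trophectoderm, the outer layer of the blastocyst. They are the simple keratins Krt7, Krt8, Krt18 and Krt19, the AP-2 transcription factors Tfap2a and Tfap2c, and Cdx2, Elf3, Ascl2 and Plac1. They were taken by symbol from the 24061 rows of the deposited count table, and all 10 had a row. They were chosen with results of this same comparison known, so every value below is a description and nothing is tested.

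The cells were C57BL/6 mouse embryonic stem cells, kept on embryonic fibroblast feeders in medium with serum replacement and LIF. There were 2 poly(A) RNA libraries, 1 titled mES-control (passages 17 to 23) and 1 titled mES-Pc4-OE (passages 24 to 37), so passage and group cannot be told apart. For the second title, a Venus-carrying lentivirus was used to overexpress Pc4, the single-stranded DNA-binding coactivator encoded by Sub1. The study made 3 such lines by picking colonies, and which of them gave the library is not given in the sources used here, nor is whether the feeders were removed. The libraries held 10571463 and 10194783 counts. Sub1 itself stood at 530.3 CPM (read counts scaled to library size by the trimmed mean of M values) in the control and at 235.0 CPM in Pc4-OE. The latter is lower by 2.26-fold (95% interval 2.15 to 2.37, which covers counting error only, as do all intervals here), and this goes against the title. The libraries are therefore called by their labels, the library labelled control and the library labelled Pc4-OE, and every direction below is a direction between labels.

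Keratins are the intermediate filaments of epithelia, and each filament is built from pairs of a type I and a type II keratin. Krt8 (type II) and Krt18 (type I) are the first keratins of the mouse embryo and appear with the trophectoderm, where Krt7 (type II) and Krt19 (type I) join them. AP-2 factors bind GC-rich sites, and Tfap2c acts in trophectoderm and trophoblast, in germ cell precursors and in embryonic stem cells, while Tfap2a is best known from neural crest and surface ectoderm. Cdx2 is the homeobox factor that sets trophectoderm apart from the inner cell mass, Elf3 is an ETS factor of epithelia, Ascl2 is a basic helix-loop-helix factor needed in the placenta, and Plac1 is a placental gene on the X chromosome.

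The start regions of 4 of the genes are shown because Krt7, Krt18 and Elf3 were among the 4 genes at least 2-fold higher, and because Krt8, the partner of Krt18, was not. Each runs from 250 bases before to 50 bases after the RefSeq start (GRCm38.p6), 5′ to 3′ in the direction of the gene. The capitals mark matches on either strand to an AP-2 motif (GCCNNNGGC), a TATA motif (TATAAA) or a TEAD motif (GGAATG).
Krt7, chr15:101412153-101412452 (+ strand): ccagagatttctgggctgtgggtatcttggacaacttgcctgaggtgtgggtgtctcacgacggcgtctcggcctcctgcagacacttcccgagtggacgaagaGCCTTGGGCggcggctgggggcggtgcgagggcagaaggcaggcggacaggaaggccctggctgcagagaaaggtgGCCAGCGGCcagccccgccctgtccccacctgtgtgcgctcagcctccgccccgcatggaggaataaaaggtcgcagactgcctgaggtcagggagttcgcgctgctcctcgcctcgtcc
Krt8, chr15:102004293-102004592 (- strand): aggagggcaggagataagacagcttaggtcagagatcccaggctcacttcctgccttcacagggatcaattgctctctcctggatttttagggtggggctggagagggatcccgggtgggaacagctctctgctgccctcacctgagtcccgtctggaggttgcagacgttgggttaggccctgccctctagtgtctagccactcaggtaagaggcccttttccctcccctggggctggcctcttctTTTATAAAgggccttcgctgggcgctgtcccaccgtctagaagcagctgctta
Krt18, chr15:102027966-102028265 (+ strand): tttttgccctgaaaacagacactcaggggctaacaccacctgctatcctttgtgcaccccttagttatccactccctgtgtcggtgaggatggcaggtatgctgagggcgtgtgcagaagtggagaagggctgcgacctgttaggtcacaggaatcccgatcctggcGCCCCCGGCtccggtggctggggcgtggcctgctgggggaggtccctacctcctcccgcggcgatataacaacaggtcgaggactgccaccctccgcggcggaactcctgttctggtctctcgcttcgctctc
Elf3, chr1:135258423-135258722 (- strand): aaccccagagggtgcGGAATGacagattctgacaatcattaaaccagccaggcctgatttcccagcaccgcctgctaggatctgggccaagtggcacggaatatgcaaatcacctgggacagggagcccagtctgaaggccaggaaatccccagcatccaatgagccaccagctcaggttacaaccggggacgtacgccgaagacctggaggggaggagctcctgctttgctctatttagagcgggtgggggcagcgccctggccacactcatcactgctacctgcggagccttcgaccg

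The AP-2 letters stood in the start regions of Krt7, Krt18 and Cdx2, against 16.6% of all 32851 RefSeq start regions of this length. The Krt7 region held 2 matches, beginning 146 and 70 bases before the start, and that of Krt18 held 1, beginning 83 bases before it. The TATA letters stood in that of Krt8 alone among the 10 regions of 8 members that the table holds, as 2 overlapping matches on opposite strands beginning 3 and 1 bases before the start. They occur in 13.6% of all regions. The TEAD letters stood in that of Elf3, 235 bases before the start, and in 14.7% of all. A GC box (GGGCGG), which can overlap the AP-2 letters, stood in regions of Krt7, Tfap2a, Ascl2 and Plac1 and in 35.7% of all, and a GATA motif (AGATAA) in those of Krt8 and Plac1 and in 11.2% of all. A match is a run of letters and not a bound site. No sequence is shown for Tfap2c and Krt19.

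Of the 10 genes, 8 had at least 20 counts summed over both libraries and are called measured. Under the label Pc4-OE, Krt7, Tfap2c, Elf3 and Krt18 were higher by at least 2-fold with a counting interval that excluded a ratio of 1. Tfap2a alone was at least 2-fold lower by the same rule, and Krt8, Krt19 and Ascl2 did neither. Over all 14213 measured genes of the table, 11.8% met the rule as higher and 4.02% as lower, and since the 10 were picked from this comparison nothing is read from their count beside it. The median log2 ratio of the 8 was 1.06, and that of all measured genes was -0.01.

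**Figure D1:**
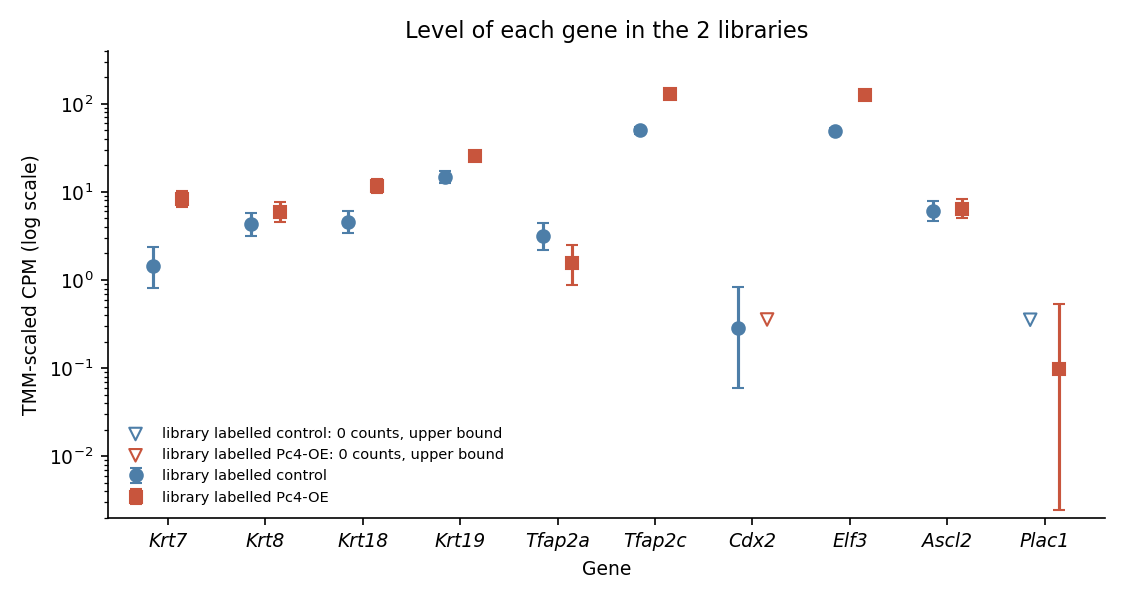
Level of each of the 10 genes in CPM on a log axis, with circles for the library labelled control, squares for the library labelled Pc4-OE, 95% Poisson counting intervals as bars and open triangles for the upper bound at 0 counts. Tfap2c and Elf3 are near 50 CPM in the first and above 120 CPM in the second, and Cdx2 and Plac1 lie at the floor in both.

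Among the type II keratins, Krt7 differed most. It had 15 counts (1.44 CPM, exact Poisson interval 0.81 to 2.38) in the library labelled control and 87 counts (8.41 CPM, 6.73 to 10.4) under the label Pc4-OE. The counting intervals of the levels do not overlap, and the ratio was 5.84 (95% interval 3.35 to 10.9). Of the measured genes, 99.0% had a lower ratio than Krt7, and 6.20% had a lower control level. Krt8, with which Krt18 forms the commonest filament of simple epithelia, had 45 counts (4.32 CPM) and 62 counts (5.99 CPM), and here the intervals overlap. Its ratio was 1.39 (interval 0.93 to 2.08), so a difference was not detectable at this depth.

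Among the type I keratins, Krt18 had 48 counts (4.61 CPM) in the library labelled control and 120 counts (11.6 CPM) in the other, a ratio of 2.52 (interval 1.79 to 3.59). The intervals of its levels, 3.40 to 6.11 and 9.61 to 13.9 CPM, do not overlap. Krt19, a type I keratin that lacks most of the tail domain, had the most counts of the 4, with 154 (14.8 CPM) and 263 (25.4 CPM). Its ratio of 1.72 (interval 1.40 to 2.11) excluded 1 and did not reach 2. All 4 simple keratins thus had a ratio above 1, as had 49.3% of all measured genes, and 2 of the 4 met the 2-fold rule.

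Relative to each other the keratins did not keep their proportions. These within-library proportions do not depend on the scaling between libraries, and their intervals come from the 4 counts on the log scale. Under the label Pc4-OE the Krt7 to Krt8 ratio was 4.21-fold higher (interval 2.16 to 8.22), and the Krt7 to Krt18 ratio 2.32-fold (1.22 to 4.41). The Krt18 to Krt8 ratio was 1.81-fold higher (1.09 to 3.02). That of Krt19 to Krt18 was 0.68 times its control value (0.46 to 1.01), an interval that includes 1.

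Levels of different genes are compared per kilobase of transcript. On that scale Krt19 made up 61.9% of the 4 simple keratins in the library labelled control and 52.1% in that labelled Pc4-OE, and Krt7 5.25% and 15.02%. Krt18 made up 19.0% and 23.5%, and Krt8 13.8% and 9.40%. The type II pair summed to 3.30 CPM per kb in the first library and 8.62 in the second, and the type I pair to 13.99 and 26.7. The type I sum was thus the larger in both libraries.

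Vimentin, the intermediate filament of mesenchymal cells such as the feeders, gives a second reference. Vim stood at 442.2 CPM in the library labelled control and 940.3 CPM in that labelled Pc4-OE, a ratio of 2.13 (interval 2.05 to 2.20). The 4 simple keratins together had 262 and 532 counts, a ratio of 2.04 (1.76 to 2.38). Per kilobase they amounted to 7.17% of the Vim level in the control-labelled cells and 6.88% in the others. Against Vim, Krt7 was 2.74-fold higher (interval 1.58 to 4.75), Krt18 was 1.18 times its control proportion (0.84 to 1.66), Krt19 0.81 times (0.66 to 0.99) and Krt8 0.65 times (0.44 to 0.96). The fibroblast markers given below had ratios from 1.59 (Col3a1) to 5.81 (Acta2), so such proportions depend on the marker chosen. Whether the keratins follow the share of feeder RNA was not tested.

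The AP-2 factors stood on opposite sides. Tfap2c, the abundant one, had 519 counts (49.8 CPM) in the library labelled control and 1346 counts (130.0 CPM) in that labelled Pc4-OE, and its ratio of 2.61 (interval 2.36 to 2.89) lay above 2 over the whole interval. Tfap2a had 33 counts (3.17 CPM) and 16 counts (1.55 CPM), 2.05-fold lower (interval 1.10 to 3.99). That call rests on few counts: with library totals in place of the scaling its log2 ratio was -0.99, and with a pseudocount of 0.5 CPM it was -0.84, and neither meets the rule. The Tfap2c to Tfap2a proportion went from 19.3 to 103.4 per kilobase, 5.35-fold higher (interval 2.92 to 9.80).

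The other AP-2 genes were near the floor. Tfap2b had 0 counts in both libraries, Tfap2d 1 and 0, and Tfap2e 6 in each. A count of 0 allows up to 3 counts, which is 0.288 CPM in the library labelled control and 0.290 CPM in that labelled Pc4-OE. A list of 12 AP-2 relatives, coactivators and inhibitors also counts Tfap4 (ratio 0.81), which encodes AP-4 and not an AP-2 factor. Of the 12, 9 were measured, 1 was higher and 0 lower, with a median log2 ratio of 0.12. The one was Cited1, a CITED coactivator, with 5 and 17 counts (ratio 3.42, interval 1.21 to 11.9). Cited2, the abundant coactivator of AP-2, had 377 counts in both libraries and a ratio of 1.01 (0.87 to 1.16), Ep300 and Crebbp, acetyltransferases, 0.87 (0.82 to 0.92) and 0.80 (0.72 to 0.90), and Kctd15, which inhibits AP-2 activity, 1.27 (0.99 to 1.62).

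Elf3 had nearly the same counts as Tfap2c under each label, with 512 (49.2 CPM) under control and 1286 (124.3 CPM) under Pc4-OE, a ratio of 2.53 (interval 2.28 to 2.81). The Elf3 to Tfap2c proportion was 1.40 per kilobase in one library and 1.36 in the other, and its change of 0.97-fold had an interval of 0.84 to 1.12. Ascl2 had 64 counts (6.15 CPM) and 67 counts (6.47 CPM), overlapping levels with a ratio of 1.05 (0.74 to 1.51). Cdx2 had 3 and 0 counts and Plac1 0 and 1, so both lie at or under the floor and no ratio is given. At this depth neither was detected above that floor under either label.

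Ordered per kilobase, Elf3 (24.6 CPM per kb) and Tfap2c (17.6) led in the library labelled control, followed by Krt19 (10.7), Ascl2 (3.83), Krt18 (3.29), Krt8 (2.39), and Tfap2a and Krt7 (both 0.91). The counting intervals of Ascl2, Krt18 and Krt8 all overlap one another, as do those of Tfap2a and Krt7. In the library labelled Pc4-OE the order was Elf3 (62.2), Tfap2c (45.8), Krt19 (18.4), Krt18 (8.28), Krt7 (5.30), Ascl2 (4.03), Krt8 (3.32) and Tfap2a (0.44). There Krt7, Ascl2 and Krt8 all overlap one another, Krt7 and Krt8 only barely. Krt7 thus stood at the level of Tfap2a in the first library and, in the second, well above it.

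**Figure D2:**
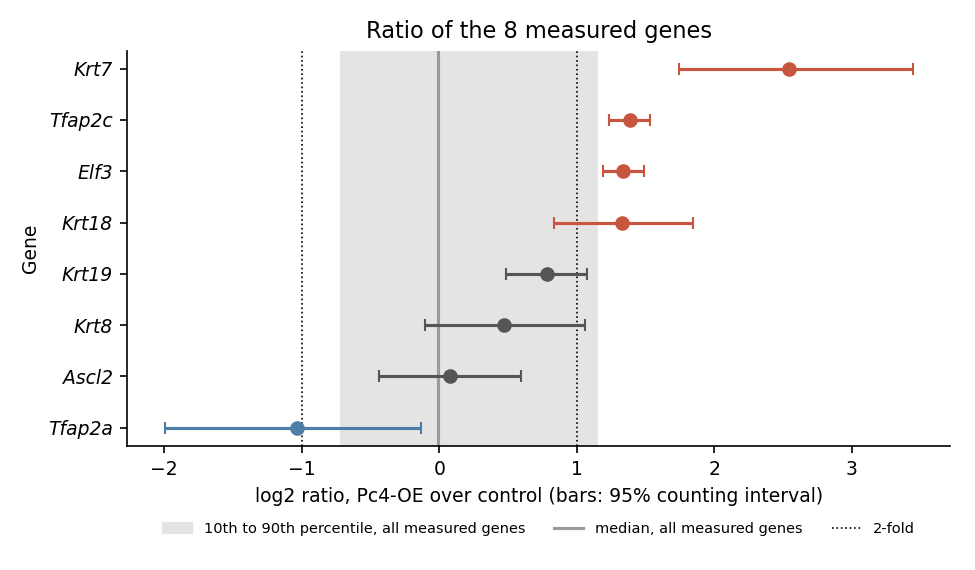
Log2 ratio of Pc4-OE over control for the 8 measured genes, with 95% counting intervals as bars, dotted lines at 2-fold and a grey band from the 10th to the 90th percentile of all measured genes (-0.71 to 1.15). Krt7 (2.54), Tfap2c (1.38), Elf3 (1.34) and Krt18 (1.33) lie to the right of the band and Tfap2a (-1.04) to its left.

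Fibroblast markers, as of the feeders, and macrophage markers were higher under the label under which Krt7, Krt18, Tfap2c and Elf3 were higher. Every one of the 24 fibroblast markers had more CPM under the label Pc4-OE, and 19 met the 2-fold rule as higher and 0 as lower (median log2 ratio 1.37). Their summed level was 7448 CPM in the library labelled control and 18993 CPM in that labelled Pc4-OE, and none was at 0 in either. Lox (5.39), Fbln2 (5.31), Acta2 (5.81), Mmp2 (4.16) and Tagln (4.42) had the highest lower bounds of the ratio, and Col3a1 (1.59), Col5a2 (1.82) and Fbn1 (1.87) were the most counted that did not. Of 16 measured macrophage markers 15 were higher and 0 lower (median 2.20, summed level 228 and 630 CPM). Among them were Ctss (8.62), C1qc (12.8), Tyrobp (10.4), C1qa (8.60) and Lyz2 (5.04), Laptm5 (1.20) did not meet the rule, and Lyz1 was the one marker listed at 0, in the control. Fewer cells of a type and less RNA per cell cannot be told apart in such libraries, and the part of these markers in the ratios of the 10 genes was not tested.

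Stem cell markers were present under both labels. Of 12 such markers all were measured, 0 were higher, 1 was lower and the median log2 ratio was 0.01, a sign that turns under other scalings. Pou5f1 stood at 1092.2 and 571.4 CPM, Nanog at 427.5 and 506.1, and Sox2 at 461.0 and 456.1. The lower one was Lin28a, 2.02-fold (interval 1.90 to 2.15), a call lost when library totals replaced the scaling. The other markers, Esrrb, Zfp42, Klf4, Dppa5a, Tdgf1, Utf1, Tcl1 and Fgf4, had log2 ratios between -0.69 and 0.54.

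Keratins beyond the 4 were mostly near the floor. The table has 52 keratin rows, of which 48 are not among the 10 genes, and of these 45 had under 20 counts and 22 had none in either library. Krt5 (1 and 5 counts) and Krt14 (2 and 0), the basal pair of stratified epithelia, had almost no counts, as did Krt20 (7 and 4) and Krt80 (0 and 2). The 3 measured were Krt42, Krt17 and Krt10, all with a ratio below 1. Krt42, a type I keratin, had 295 counts (28.3 CPM) in the library labelled control and 123 counts (11.9 CPM) in that labelled Pc4-OE, 2.38-fold lower (interval 1.93 to 2.97). Krt17 was at 9.80 and 7.63 CPM (ratio 0.78, interval 0.57 to 1.06).

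Of 14 stratified epithelium markers 5 were measured, 4 of them with a ratio above 1. By the 2-fold rule 2 were higher and 0 lower, with a median log2 ratio of 0.77. The higher ones encode cornified envelope proteins, Sprr1a (5 and 280 counts, ratio 56.3, interval 23.9 to 174.9) and Ivl (17 and 87 counts, ratio 5.15, interval 3.04 to 9.24). The most counted, Perp (1.37, interval 1.22 to 1.53) and Sfn (1.71, 1.48 to 1.97), did not meet the rule. Krt6a and Sprr2a1 had no count in either library, and Trp63, the basal-cell factor, had 0 and 3. Also under the minimum, Lgals7 had 12 counts under control and 0 under Pc4-OE, and Lor had 2 and 10.

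Genes that anchor or accompany keratin filaments were compared next, while the fibroblast markers stood at a median of 1.37. Of 15 measured anchor and desmosome genes, 3 were higher, 1 lower and 11 neither (median log2 ratio 0.26). Dsp, the desmoplakin that ties keratins to desmosomes, went from 6.15 to 32.7 CPM, a ratio of 5.31 (interval 4.06 to 7.05). Dsc2, a desmosomal cadherin, had a ratio of 2.89 (1.92 to 4.47) and Ppl, periplakin, 2.31 (1.70 to 3.19). Dsg2, the partner cadherin of Dsc2, was 2.02-fold lower (1.70 to 2.403), a call lost with library totals or with a pseudocount of 0.5 CPM. Plec (1.55), Dst (1.36) and Macf1 (0.89), the large plakins, did not meet the rule. Of 12 other measured intermediate filament genes, Vim was higher, the neuronal Ina (8.49-fold) and Nefh (2.90-fold) were lower and 9 did neither, with a median of 0.45 and a mean of -0.13. The lamin genes Lmnb1 (0.60), Lmna (1.42) and Lmnb2 (0.61) had the most counts among the 9.

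Other factors of trophectoderm and trophoblast stem cells went both ways. Of 15 measured, 5 met the rule as higher and 2 as lower and 8 did not. Their median log2 ratio was 0.46 and became -0.05 among those with at least 100 counts, of which 1 was higher. Gata3, a factor upstream of Cdx2, had 3 and 24 counts (ratio 8.05, interval 2.44 to 41.8) and Gata2 16 and 59 (3.71, 2.11 to 6.91). Esx1, Fgfr2 and Dlx3 had ratios of 3.29 (1.64 to 7.17), 2.37 (1.72 to 3.28) and 2.25 (1.32 to 3.97). Bmp4 was 2.74-fold lower (2.398 to 3.14) and Klf5 2.06-fold (1.94 to 2.20). Eomes, the T-box factor of trophoblast stem cells, was at 15.5 and 8.21 CPM (ratio 0.53, 0.40 to 0.70), Tead4 at 22.6 and 15.9 CPM (0.71, 0.58 to 0.87), and Elf5 had 1 and 2 counts. Sox15 (1.31), Ets2 (1.68) and Arid3a (1.61), the most counted of those that did not meet the rule, had ratios above 1.

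Differentiated placental genes were largely at the floor. Of the 21 genes listed, 9 were measured, and Prl3d1, Prl3b1, Tpbpa, Synb, Hsd3b6 and Plac9a had no count in either library. Among the 9, 4 were higher and 2 lower. Their median log2 ratio was 0.37 and became -0.67 with at least 100 counts, where 1 was higher. Prl8a9 (3 and 60 counts) had a ratio of 20.1 (interval 6.56 to 100.3) and Prl2c2 (9 and 74 counts) 8.27 (4.13 to 18.8). They belong to the large prolactin family, and near-identical copies of these genes were not searched for. Rhox9 (2.77) and Plac8 (2.03) were the other higher genes. The imprinted Peg10 was 2.91-fold lower and the steroidogenic Cyp11a1 5.04-fold. Mmp9 (1.16), Phlda2 (0.63) and Rhox6 (1.29) did not meet the rule.

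Of 19 measured genes of the trophectoderm epithelium and blastocoel, 5 were higher, 0 lower and 14 neither (median log2 ratio 0.36). The claudin Cldn4 went from 43.2 to 144.7 CPM (ratio 3.35, interval 3.01 to 3.73), Cldn7 from 5.09 to 23.6 (4.63, 3.43 to 6.36) and Cldn6 from 24.6 to 55.7 (2.26, 1.95 to 2.63). Claudins seal tight junctions. Fabp3, a fatty acid carrier, had a ratio of 3.72 (3.18 to 4.36) and Wnt7b (5 and 42 counts) 8.45 (3.35 to 27.4). The glucose transporter gene Slc2a1 (0.76), the adhesion genes Cdh1 (1.18) and Epcam (1.39) and the junction gene Tjp1 (0.83) did not meet the rule.

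Most epithelial regulators did not meet the 2-fold rule that Elf3 met, and over all measured genes 11.8% met it as higher. Of 11 measured, Esrp1, an epithelial splicing regulator (ratio 2.61, interval 2.27 to 3.01), and Grhl2, a grainyhead factor (2.36, 2.00 to 2.79), were higher, 0 were lower and 9 did neither, with a median of 0.58. Grhl3 (0.86) and the other ETS factors Elf1 (1.75), Elf4 (1.53) and Elf2 (1.004) did not meet the rule. The TEAD and YAP list holds YAP and TEAD factors other than Tead4, genes that restrain YAP, and targets of YAP. Tead4, which acts on Cdx2 in the trophectoderm, is counted among the trophectoderm factors above, with a ratio of 0.71 (interval 0.58 to 0.87). Of the 13 measured genes of the TEAD and YAP list 7 were higher and 0 lower (median log2 ratio 1.02). Among them were Ankrd1 (ratio 12.5), Lats2 (4.93), Cyr61 (4.54), Amotl2 (2.78) and Ctgf (2.14), known targets of YAP, of which Cyr61 and Ctgf are also abundant in fibroblasts. Yap1 itself had a ratio of 0.98 (interval 0.91 to 1.04), and the factors Tead1 (1.43) and Tead2 (0.85) did not meet the rule either. The factor Tead3, with 99 and 242 counts, met it as higher (2.46, interval 1.94 to 3.14).

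**Figure D3:**
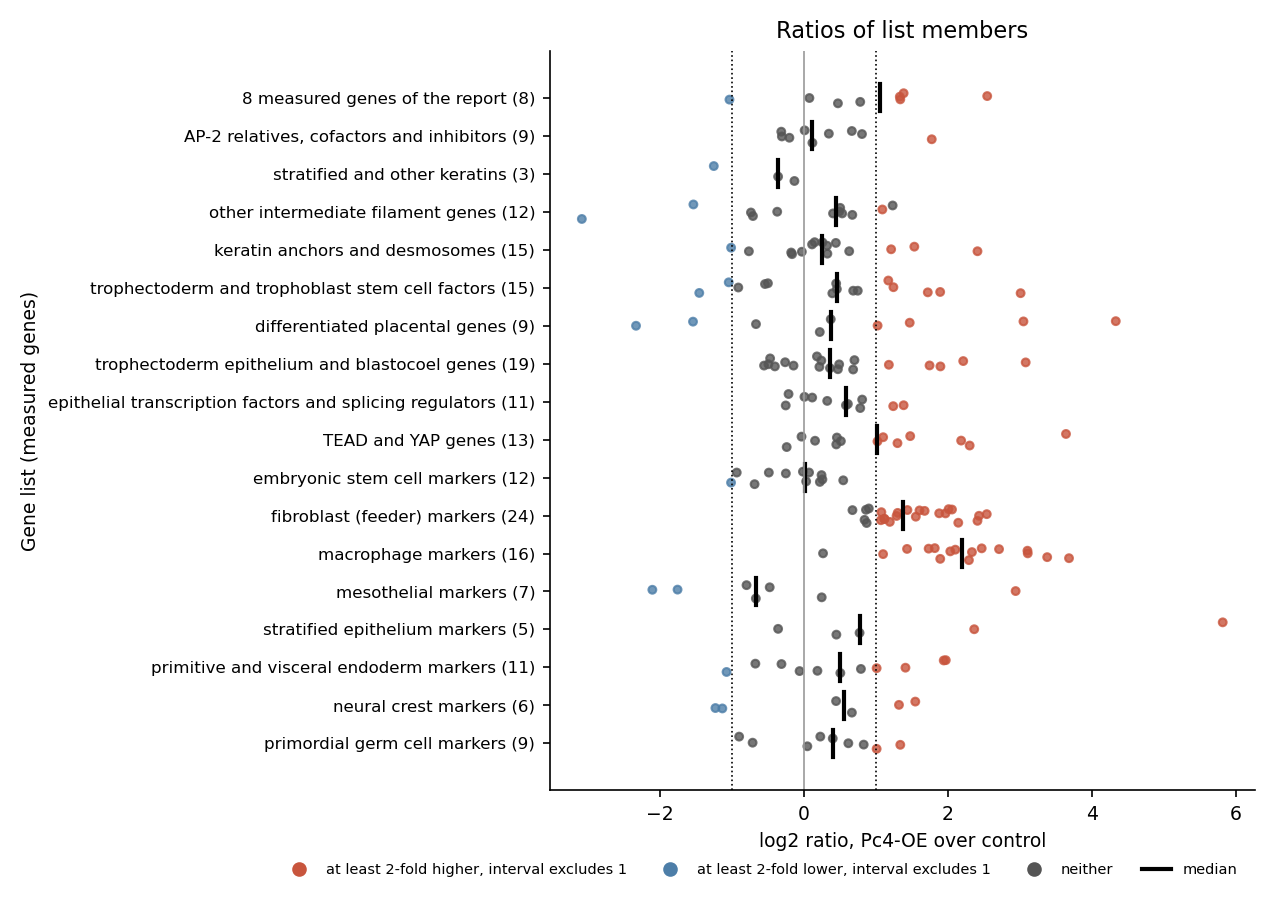
Log2 ratio of Pc4-OE over control for each measured gene of each list, with the number of measured genes in parentheses and a black bar at the median. Points in red are at least 2-fold higher, points in blue at least 2-fold lower, and the fibroblast (median 1.37) and macrophage (median 2.20) markers lie farthest to the right as lists.

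Simple keratins and AP-2 factors are also expressed by other cells, so markers of 4 of these were counted. Mesothelial cells express Krt8, Krt18, Krt19 and Krt7. Of 7 measured mesothelial markers 1 was higher, Bnc1 (ratio 7.67), 2 were lower, Wt1 (4.31-fold) and Upk3b (3.38-fold), and the median was -0.67. With at least 100 counts only Bnc1 and Lrrn4 were left, the median was 1.23 and 0 were lower. Lrrn4 (0.72), Msln (1.19) and Rspo1 (0.57) did not meet the rule. Primitive and visceral endoderm also has simple keratins. Of 11 measured markers of it 4 were higher and 1 lower (median log2 ratio 0.50). The 4 were Gata4 (2.01), a factor of primitive endoderm, Dab2 (3.84), Pdgfra (3.92) and Col4a1 (2.66). Fibroblasts share at least Pdgfra and Col4a1, and which cells gave the counts of the 4 was not tested. Hnf4a was 2.11-fold lower, and with a pseudocount of 0.5 CPM neither Gata4 (log2 ratio 0.87) nor Hnf4a (-0.97) met the rule. Lama1 (1.14), Sox7 (1.73) and Cubn (0.63) did not meet it. Ttr and Afp had at most 1 count in either library.

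Neural crest, where Tfap2a acts, had 2 of 6 measured markers higher (Snai2, 2.92, and Ets1, 2.495) and 2 lower (Ngfr, 2.35-fold, and Foxd3, 2.20-fold), with a median of 0.56. Erbb3 (1.36) and Sox9 (1.59) did not meet the rule, and Sox10, its defining factor, had 3 counts in each library. Germ cell precursors, where Tfap2c acts, had 2 of 9 higher (Itgb3, 2.53, and Dppa3, 2.01) and 0 lower, with a median log2 ratio of 0.40, and Dppa3 lost the call with a pseudocount of 0.5 CPM. Prdm1, which works with Tfap2c there, stood at 14.5 and 22.2 CPM (ratio 1.53, interval 1.24 to 1.89), and Prdm14 had a ratio of 1.17 (0.97 to 1.41). Alpl (0.61), Kit (1.03) and Dazl (1.78) were the most counted that did not meet the rule.

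Krt7, Krt8 and Krt18 lie together on chromosome 15 (GRCm38), Krt7 at 101412403 to 101427806, Krt8 at 101996711 to 102004342 and Krt18 at 102028216 to 102032026. Between the first and the last, over 619.6 kb, the table has 20 other keratin rows, with 16 counts in all in the library labelled control and 25 in that labelled Pc4-OE, and 11 of them had none. Within 1 Mb of Krt8, 37 other genes were measured, with a median log2 ratio of 0.23. Over all measured genes 11.8% were higher and 4.02% lower, and here 10 were higher and 2 lower. The 10 include Krt7 and Krt18 and a group of Hoxc genes near the far edge. The nearest measured neighbour after Krt18, Eif4b, a translation initiation factor, had a log2 ratio of -0.07.

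**Figure D4:**
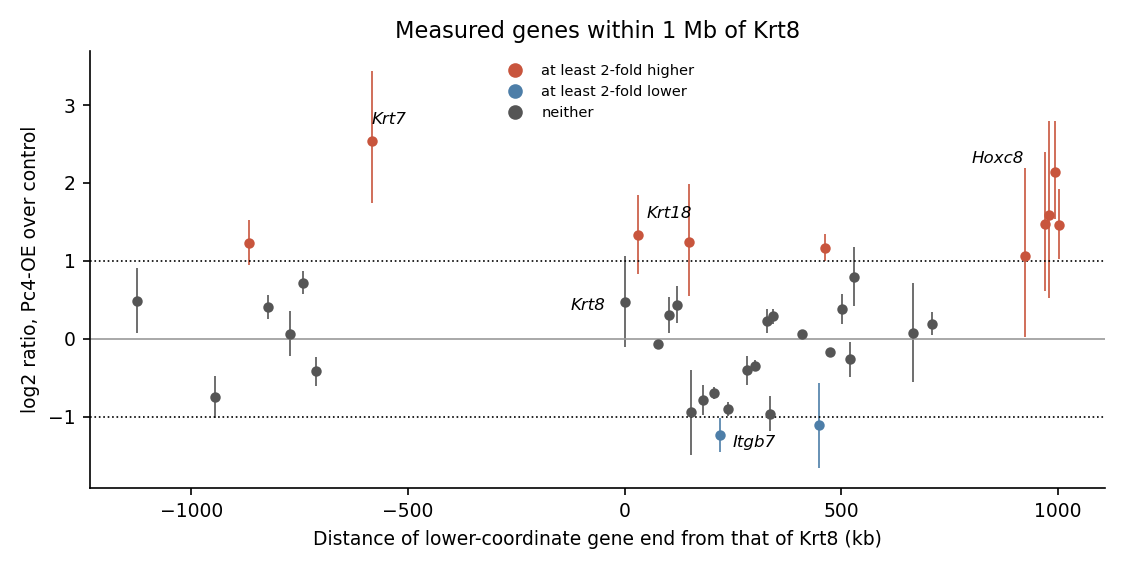
Log2 ratio of Pc4-OE over control, with 95% counting intervals, for each measured gene within 1 Mb of Krt8, by the distance in kb between the lower-coordinate ends of the genes. Krt7 (2.54) is the highest, Hoxc8 (2.14), Hoxc9 (1.59), Hoxc10 (1.47) and Hoxc6 (1.47) also lie above Krt18 (1.33), and Itgb7 (-1.24) is the lowest.

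The other genes lie apart. Tfap2c is on chromosome 2 (172545678 to 172558622), where 12 measured genes within 1 Mb had a median of 0.28. Elf3 is on chromosome 1 (135253574 to 135258472), where 25 had a median of 0.41. Krt19 is on chromosome 11 (100140810 to 100145926), with a median of -0.07 over 35 neighbours, and Tfap2a on chromosome 13 (40713802 to 40738238), with -0.07 over 8. Ascl2 is on chromosome 7 (142966822 to 142969264), with 0.33 over 24. Cdx2, on chromosome 5, lies among 15 measured genes with a median of -0.70, and Plac1 on the X chromosome among 13 with 0.46. In this order of the genes, 2, 7, 2, 1, 8, 1 and 2 neighbours were higher and 1, 0, 2, 0, 2, 4 and 0 lower. Over all measured genes 11.8% were higher and 4.02% lower, and whether any neighbourhood departs from that was not tested.

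Some counts carry a limit from the gene models. Krt8 has a pseudogene, Krt8-ps, and an antisense gene, Gm36026, that match its transcript at 95% identity or more over at least 100 bases, the longer match spanning 941 of its 1958 bases. How reads with several matches were counted is not given in the sources used here, so the level of Krt8 and its place in the order are uncertain. Shorter matches, to Gm47061 for Tfap2a and to Gm26642 for Elf3, lie in genes on the opposite strand. Such genes overlap exons of Krt7 (1), Krt8 (1), Tfap2a (3) and Elf3 (1), and with the strand setting unknown their reads may be mixed. Krt18, Krt19, Tfap2c and Ascl2 had no such copy and no overlapping gene.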

How the data were processed

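RNA from 1 library per group was compared. Per the submitters' processing notes, the authors used STAR 2.4.1c and featureCounts on mm10, and they deposited whole-number read counts per gene with an Entrez ID and symbol; the annotation is not given in the sources used here. Counts were scaled by TMM (edgeR 4.0.16, R 4.3.3) to CPM. Ratios carry no pseudocount and have exact 95% Clopper-Pearson intervals (scipy 1.17.1) that cover counting error alone, reads being no independent molecules. No test is possible with 1 library per group. A gene met the rule at a ratio of at least 2 either way with an interval excluding 1, among genes with at least 20 summed counts. Levels per kilobase used the longest RefSeq-linked GENCODE M21 transcript, cut to the RefSeq gene. Alternatives were DESeq2 1.42.0 size factors, library totals, upper quartile, a pseudocount, other minimums, a 1.5-fold rule and wider intervals. Copies were sought with blastn 2.17.0. The rule was tried on simulated counts with counting error alone, where 0.371% of unchanged genes met it. Such counts do not cover differences between replicate libraries. The treatment of strand and of reads with several matches is not given in the sources used here. Members and lists were chosen with earlier results of these data known. Genes named are the 10, Sub1, the stem cell markers, a fixed set of relatives, and in each list up to 5 genes per direction that met the rule and up to 3, the most counted, that did not, except an item that is not reported here. Named outside it, after values were seen, are Tfap2d, Tfap4, Kctd15, Krt6a, Sprr2a1, Trp63, Lgals7, Lor, Elf4, Tead3, Tead4, Epcam, Tjp1, Prdm1 and Prdm14. So are Sox10, Ttr, Afp, Lyz1, Eif4b, Itgb7, the placental genes at 0, and the Hoxc genes.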

Additional observations from a re-analysis of the deposited data

How the results depend on the processing

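Scaling by library totals, by DESeq2 size factors or by the upper quartile moved the median of all measured genes to no more than 0.03 and left 4 of the 10 genes at least 2-fold higher. With an assumed replicate spread (coefficient of variation 0.4) added to the intervals, only Krt7 kept the call (1 gene), Sub1 (log2 ratio -1.17) no longer met the rule, and over all genes 597 were higher and 96 lower, against 1673 and 572. At 1.5-fold, Krt19 joined the higher genes, and the counts over all genes were 2673 and 1878. With a minimum of 100 counts they were 1095 and 366, and the median of the 10 genes' measured members was 1.33, since Tfap2a is then left out. Medians of lists that changed sign were those of trophectoderm factors (-0.054), placental genes (-0.67) and mesothelial markers (1.23) at 100 counts, of stem cell markers with DESeq2 size factors (-0.00142) and the upper quartile (-0.000771), and of other keratins without a minimum (0.25). A median counts as moved past 0.1. No paired analysis was possible because each group has 1 library. At this depth Cdx2 and Plac1 gave no ratio, and the interval of Krt8 included 1.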

Other observations

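The Hoxc genes at the edge of the Krt8 neighbourhood were seen only after its values had been listed. Hoxc8, a homeobox gene of trunk mesoderm and neural tube, had 28 counts under the label control and 123 under Pc4-OE, a ratio of 4.42 (interval 2.91 to 6.92). Hoxc6 had 59 and 162 counts (2.76, 2.04 to 3.79), and Hoxc9, Hoxc10 and Hoxc13 had ratios of 3.02, 2.77 and 2.10. Over the 4 Hox clusters 24 genes were measured, and 17 met the 2-fold rule as higher and 1 as lower. Their median log2 ratio was 1.40, while the fibroblast markers had 1.37. The part of feeder RNA in this was not tested. The summed Hox level was 52.0 CPM and 119.8 CPM.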
